A study of Mus musculus with 4 samples.

Results

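Solute carriers are membrane proteins that move ions, amino acids, sugars, vitamins, metals and other small molecules across cell membranes, and their gene names give the family number, the letter a and a member number. The 176 RNAs described here were all the RNA names of that form, in the pattern Slc, digits, a, digits, in a deposited table of RNA-RNA contacts of mouse spermatogonial stem cells, without Slc9a9, Slc2a1 and Slc2a3. They were 176 of 13318 RNA names in the table and took part in 630 of its 56636 pairs of RNAs. Of the 176 names, 168 ended after the member number, and 8 had further characters: Slc22a13b-ps, Slc39a1-ps, Slc4a1ap, Slc6a20a, Slc6a20b, Slc7a6os, Slc9a3r1 and Slc9a3r2. Slc6a20a and Slc6a20b were kept among the amino acid transporters. The other 6 were set apart as names that are no transporter or a pseudogene.

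The contacts were measured by RIC-seq, which fixes RNA in place with formaldehyde, cuts it, ligates neighbouring RNA ends to each other and sequences the joined (chimeric) fragments. There were 2 libraries labelled differentiation and 2 control libraries labelled wild type, all from cells labelled as spermatogonial stem cells, which renew themselves in the testis and are the source of sperm. The inducer and length of differentiation, the mouse strain and age, and whether the libraries came from separate cultures are not given in the sources used here. All p-values therefore measure library-to-library spread, which may be technical only.

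Transporters of this superfamily supply dividing cells with nutrients and set their pH, volume and ion gradients, and the mitochondrial family 25 links the metabolism of the cytosol to that of mitochondria. In the testis, germ cells take up amino acids, carboxylates and vitamins through such carriers, and anion and proton exchangers of families 9 and 26 are known for roles in sperm motility. RIC-seq counts how often fragments of these transporter RNAs were joined, and says nothing of the proteins.

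A contact total here is the sum of counts over every pair that an RNA is in, with a pair of an RNA with itself (a within-RNA pair) counted once. Every listed pair had at least 1 count in all 4 libraries, so a pair lost completely in 1 group could not be listed. A contact total can move with the level of the RNA as well as with its contacts, and in bulk samples fewer cells of a type and less RNA per cell cannot be told apart. Levels are CPM after TMM scaling (counts scaled to library size), changes are on the log2 scale, differentiation over control, with the fit's standard error (SE), and a change was called at a Benjamini-Hochberg adjusted p under 0.05 in edgeR's quasi-likelihood test over all RNAs or pairs.

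Total counts over listed pairs were 793129 and 1155923 in the differentiation libraries and 1209031 and 1400011 in the controls. Pairs with a solute carrier held 6287 and 9184 counts in the differentiation libraries and 9660 and 11274 in the controls. These were 0.793% (Wilson 95% interval 0.773% to 0.812%) and 0.795% (0.778% to 0.811%) of the differentiation libraries. The controls had 0.799% (0.783% to 0.815%) and 0.805% (0.791% to 0.820%), so the intervals of all 4 libraries overlapped. Intervals cover counting error only.

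Marker lists of meiotic germ cells, undifferentiated spermatogonia and Sertoli cells differed between the groups in their summed levels. The list of differentiating spermatogonia also differed in its summed level, with no gene called. Summed levels of the fibroblast list overlapped, though only 1 of its 9 tested genes had a change above 0. Calls are to be read against 5.44% higher and 6.75% lower over all tested RNAs. Of 8 tested meiotic germ cell genes 6 were called higher and none lower (median log2 1.91). Their list had a summed level of 633 and 777 CPM in differentiation and 194 and 185 CPM in control libraries. Meiob had no listed pair. Of 7 tested genes of undifferentiated spermatogonia 4 were called lower (median -1.14; 450.1 and 428 CPM in differentiation, 1147 and 1317 CPM in control), and Id4, Lhx1, T and Nanos2 had no listed pair. Of 8 tested Sertoli cell genes 6 were called lower (median -1.27; 797 and 776 CPM in differentiation, 1487 and 1610 CPM in control), with no listed pair for Amh and Rhox8. Of 9 tested fibroblast genes 1 was called higher and 4 lower (median -0.67), with none listed for Dcn, Lum and Postn. Their list summed to 1671 and 1827 CPM in differentiation and 1896 and 1763 CPM in control libraries. The 1 called higher, Tnc, had 670 and 694 CPM in differentiation and 321 and 271 CPM in control libraries. None of 3 tested genes of differentiating spermatogonia was called and 1 had an unadjusted p under 0.05 in edgeR's test. This list summed to 75.8 and 61.5 CPM in differentiation and 48.02 and 50.9 CPM in control libraries, with none listed for Dmrtb1 and Rhox13. The part of these cell types in the changes below was not tested.

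Most solute carrier RNAs had few contacts. The summed count over the 4 libraries had a median of 61, against 83 over all RNAs, and ran from 4 to 4921. Of the 176 RNAs, 40 had a summed count under 20 and 58 had a single listed pair. The 10 RNAs with most counts held 44.1% of all, and Slc45a4 alone held 13.5%. Slc45a4, of a family of proton-coupled sugar transporters, had 4921 counts in 21 pairs, and 82.0% of them joined the RNA to itself. Slc44a1, a choline transporter, followed with 1802 counts (85.7% within the RNA) and Slc20a2, a sodium-phosphate cotransporter, with 1724 (81.1% within).

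Among the other leading RNAs were Slc39a14 and Slc39a11, both zinc and metal transporters with 1105 counts each, and Slc25a28, a mitochondrial iron importer with 1090. Slc9a7, a proton exchanger of the Golgi, had 1062, Slc25a21, a mitochondrial carrier of oxodicarboxylates, had 980 and Slc23a2, a vitamin C transporter, had 835. Per kilobase of gene, the short Slc39a1, a zinc importer, came first with 122 counts per kb, before Slc25a28 with 97.3, Slc45a4 with 72.0 and Slc22a17 with 50.6 counts per kb.

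Within-RNA pairs were listed for 69 of the 176 RNAs (39.2%), against 36.3% of all RNAs. In the differentiation libraries 60.1% and 60.5% of the solute carrier counts were within an RNA, against 56.8% in each control. Over all pairs the within-RNA share was 47.7% and 52.9% in differentiation and 48.9% and 49.4% in control libraries, with overlap. Pairs with 6 RNAs that contact many others (Gm42418, Gm26917, Slc9a9, Malat1, Neat1 and Gm10800, here called hub RNAs) held 26.5% and 26.4% in differentiation and 31.6% and 32.6% in control libraries, with no overlap between groups. Over all pairs of the table the hub share was also lower in differentiation, at 33.6% and 29.2% against 35.7% and 35.9%. Pairs with a gene within 100 kb held 1.22% and 0.664% in differentiation and 1.21% and 0.834% in control libraries.

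**Figure D1:**
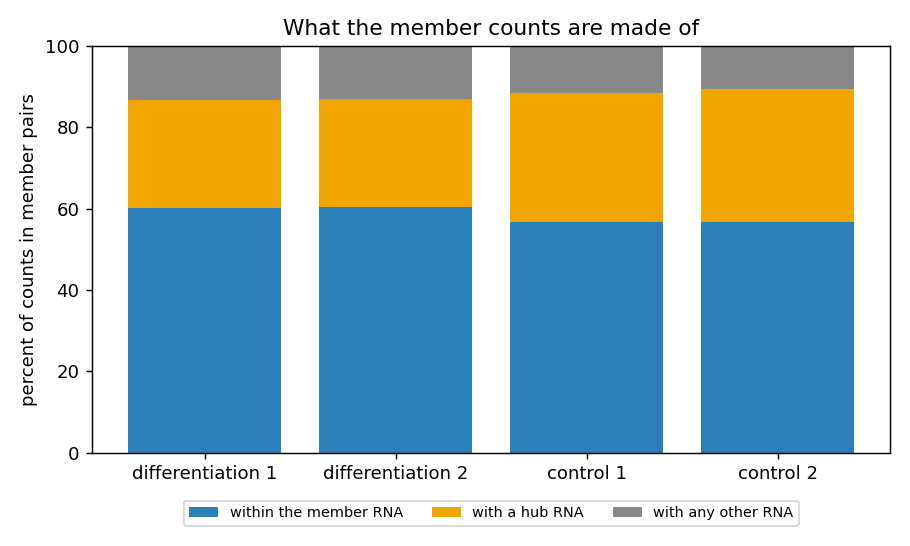
Percent of the counts in solute carrier pairs (y axis) that lay within the RNA, with a hub RNA or with any other RNA, in each library (1 bar per library). The within-RNA share was 60.1% and 60.5% in the differentiation libraries and 56.8% in both controls, and the hub share ran the other way.

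Contact totals could be tested for 141 of the 176 RNAs. The 35 untested ones had summed counts of at most 25. Of the 141, 5 were called higher and 13 lower (12.8%), against 5.44% higher, 6.75% lower and 12.2% called either way among all 10993 tested RNAs. The share called was thus near the background, and the median change was 0.03, against -0.00 over all RNAs. Under column totals without TMM, which moved the median of all RNAs to 0.16, 7 were called higher and 5 lower (all RNAs 7.1% higher, 4.17% lower). All 18 called RNAs had groups that did not overlap, as had all 1340 called RNAs of the table. Without control 1 only 3 of the 18 calls held (Slc25a21 and Slc7a1, adjusted p = 0.0360 each, and Slc9a2, 0.0382), and without control 2 none did (adjusted p = 0.0623 to 0.306). Without differentiation 1, 17 held, and without differentiation 2, 15 held.

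**Figure D2:**
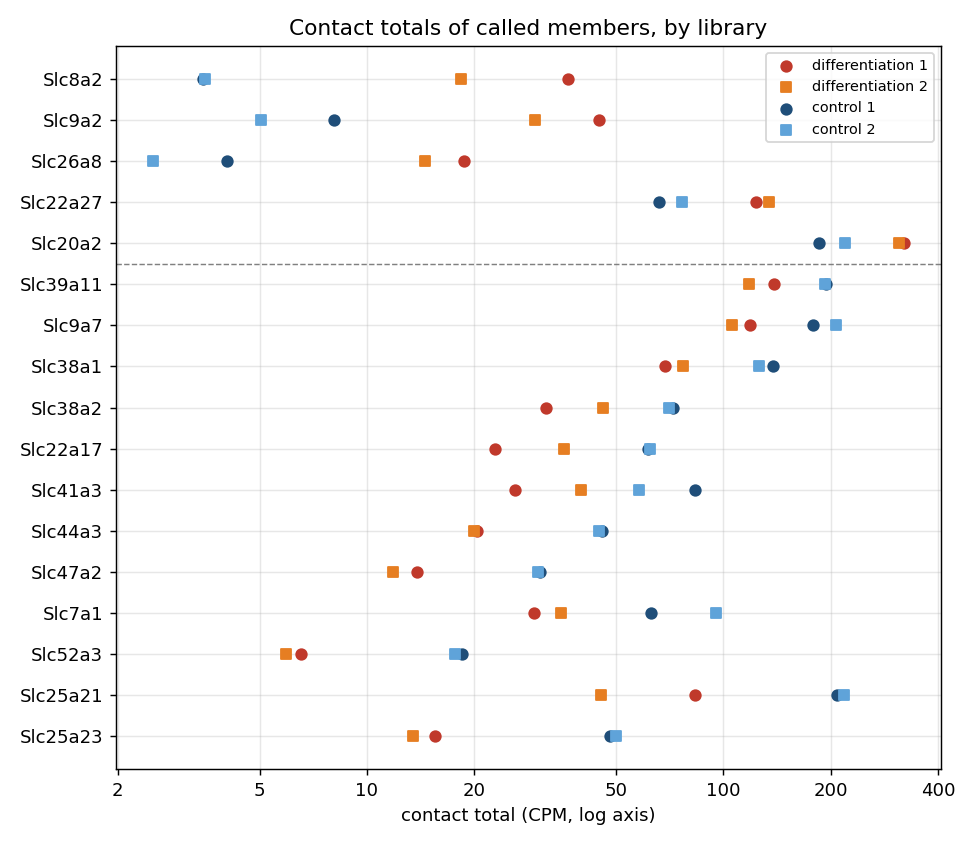
Contact totals (CPM, log axis) of 17 of the 18 called solute carrier RNAs in each library (1 point per library), 5 higher above the dashed line and 12 lower below it. Each RNA has its 2 differentiation points on one side of its 2 control points, with group means from 3.28 CPM (control level of Slc26a8) to 316 CPM (differentiation level of Slc20a2).

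Inorganic ion exchangers made up the 3 largest called rises. Slc8a2 (chromosome 7, 16127592 to 16161063, GRCm38.p6) encodes a sodium-calcium exchanger known from brain. Its total was 36.7 and 18.4 CPM in the differentiation and 3.47 and 3.53 CPM in the control libraries. Both differentiation values lay above both control values (27.5 ± 12.97 against 3.50 ± 0.0385 CPM, SD, n = 2 each, 7.57-fold, log2 2.92, SE 0.50, adjusted p = 0.00313). The counts were few, 45 and 34 in differentiation and 6 and 7 in control libraries. A start of Slc8a2 is shown here because this RNA had the largest rise, with CCAAT boxes, a GGGCGG (GC box) and a GTTGCC (bound by RFX factors) in capitals on either strand; the first CCAAT match and the GTTGCC match overlap. The window runs from 250 bases before to 50 after the annotated start (RefSeq, GRCm38.p6, chr7:16129576-16129875, plus strand). This start lies inside the gene span given above, not at its outer end.
Slc8a2 promoter: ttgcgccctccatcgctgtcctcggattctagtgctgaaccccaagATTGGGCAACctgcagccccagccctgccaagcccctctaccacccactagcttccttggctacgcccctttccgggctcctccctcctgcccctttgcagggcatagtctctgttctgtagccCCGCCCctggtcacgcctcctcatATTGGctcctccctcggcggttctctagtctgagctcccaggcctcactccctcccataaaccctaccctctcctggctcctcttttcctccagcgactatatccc

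Slc9a2 (chromosome 1, 40681712 to 40768885), a sodium-proton exchanger of the plasma membrane, had 44.8 and 29.7 CPM in the differentiation and 8.10 and 5.04 CPM in the control libraries. The groups did not overlap (37.3 ± 10.7 against 6.57 ± 2.17 CPM, SD, n = 2 each, 5.61-fold, log2 2.49, SE 0.40, adjusted p = 0.00220). All of its counts lay within the RNA, 55 and 55 in differentiation and 14 and 10 in control libraries. Slc26a8 (chromosome 17, 28637779 to 28691273) encodes an anion transporter of the testis that mice need for sperm motility. Its total was 18.8 and 14.6 CPM in the differentiation and 4.05 and 2.52 CPM in the control libraries, again without overlap (16.7 ± 2.95 against 3.28 ± 1.08 CPM, 5.00-fold, log2 2.32, SE 0.51, adjusted p = 0.0132). It rested on 23 and 27 counts in differentiation and 7 and 5 in control libraries. A promoter window of Slc26a8 is shown beside that of Slc8a2, with its 1 CCAAT match in capitals (RefSeq, GRCm38.p6, chr17:28689938-28690237, minus strand). It too belongs to a start inside the gene span, not at its outer end.
Slc26a8 promoter: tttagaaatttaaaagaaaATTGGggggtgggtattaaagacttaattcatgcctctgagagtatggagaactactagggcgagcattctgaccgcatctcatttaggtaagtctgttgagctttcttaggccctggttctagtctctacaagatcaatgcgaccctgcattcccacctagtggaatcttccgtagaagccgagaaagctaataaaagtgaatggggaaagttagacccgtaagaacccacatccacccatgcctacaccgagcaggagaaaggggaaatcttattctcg

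The other rises were smaller and rested on more counts. Slc20a2 (chromosome 8, 22476700 to 22569616), the sodium-phosphate cotransporter, had 320.4 and 311 CPM in the differentiation and 185 and 219 CPM in the control libraries. Its groups were apart (316 ± 6.72 against 202 ± 24.02 CPM, 1.56-fold, log2 0.64, SE 0.16, adjusted p = 0.0234). Slc22a27 (chromosome 19, 7864388 to 7966517), an organic anion transporter gene of rodents, had 123 and 134 CPM in the differentiation and 66.0 and 76.6 CPM in the control libraries (129 ± 7.99 against 71.3 ± 7.498 CPM, 1.81-fold, log2 0.85, SE 0.19, adjusted p = 0.0130). Most of its counts were a single pair with the translation elongation factor RNA Eef1a1, 601 of 666 in all, so its value is uncertain if reads of Eef1a1 copies fall in this gene. Without hub pairs Slc20a2 was not called (log2 0.62, adjusted p = 0.0607). Slc22a27 had 0 counts with hub RNAs, so this setting changed only its scaling and fit, not its counts. It was not called there either (log2 0.67, adjusted p = 0.0880).

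Mitochondrial carriers led the falls. Slc25a21 (chromosome 12, 56712634 to 57197472) had 83.2 and 45.3 CPM in the differentiation and 208 and 219 CPM in the control libraries. The groups were well apart (64.3 ± 26.7 against 213 ± 7.30 CPM, SD, n = 2 each, log2 -1.76, SE 0.25, adjusted p = 9.95e-04). Slc25a23 (chromosome 17, 57043711 to 57059909), a calcium-dependent ATP-magnesium/phosphate carrier, had 15.5 and 13.5 CPM in the differentiation and 48.02 and 49.9 CPM in the control libraries. It changed by the same factor (14.5 ± 1.41 against 48.9 ± 1.30 CPM, 3.39-fold lower, log2 -1.76, SE 0.29, adjusted p = 0.00262). A start of Slc25a21 is shown because this RNA had the smallest adjusted p of the 18, with its 1 CCAAT match in capitals (RefSeq, GRCm38.p6, chr12:57197423-57197722, minus strand, the first of 2 listed windows).
Slc25a21 promoter: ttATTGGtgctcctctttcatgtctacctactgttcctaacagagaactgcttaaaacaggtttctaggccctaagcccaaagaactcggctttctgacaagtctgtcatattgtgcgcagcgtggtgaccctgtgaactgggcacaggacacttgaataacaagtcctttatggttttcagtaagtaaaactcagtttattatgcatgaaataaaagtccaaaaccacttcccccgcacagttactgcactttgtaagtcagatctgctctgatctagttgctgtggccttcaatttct

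Amino acid transporters held 3 falls and no rise among 25 tested RNAs, beside 6.75% lower and 5.44% higher over all RNAs. Slc7a1 (chromosome 5, 148327410 to 148399904), a transporter of arginine and other cationic amino acids, had 29.4 and 35.1 CPM in the differentiation and 62.5 and 95.2 CPM in the control libraries. Its groups did not overlap (32.2 ± 4.06 against 78.8 ± 23.1 CPM, SD, n = 2 each, 2.43-fold lower, log2 -1.28, SE 0.26, adjusted p = 0.00879). Slc38a1 and Slc38a2, neighbouring genes 43954 bp apart on chromosome 15, encode glutamine transporters. Slc38a1 (96571418 to 96643438) had 68.5 and 77.2 CPM in the differentiation and 138 and 126 CPM in the control libraries (log2 -0.85, SE 0.19, adjusted p = 0.0127). Slc38a2 (96687392 to 96699728) had 31.8 and 45.9 CPM in the differentiation and 72.3 and 70.5 CPM in the control libraries (log2 -0.86, SE 0.24, adjusted p = 0.0372). Both had groups that did not overlap. The Slc38a2 call was lost without differentiation 1 (adjusted p = 0.0970). Without hub pairs, which hold most counts of Slc7a1 and Slc38a2, neither was called (log2 -1.22, adjusted p = 0.197, and -0.01, adjusted p = 0.991). The promoter of Slc7a1 is shown because this RNA had the largest fall among the amino acid transporters called, with its CCAAT and GGGCGG matches in capitals (RefSeq, GRCm38.p6, chr5:148399855-148400154, minus strand, the first of 2 listed windows).
Slc7a1 promoter: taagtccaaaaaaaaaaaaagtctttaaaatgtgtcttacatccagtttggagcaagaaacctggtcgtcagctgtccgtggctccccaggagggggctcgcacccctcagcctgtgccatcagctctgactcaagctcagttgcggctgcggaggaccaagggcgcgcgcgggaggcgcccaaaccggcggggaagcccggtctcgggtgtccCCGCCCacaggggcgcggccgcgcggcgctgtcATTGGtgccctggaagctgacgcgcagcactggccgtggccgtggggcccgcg

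Another proton exchanger of family 9, the family of the risen Slc9a2, fell. Slc9a7 (chromosome X, 20098851 to 20292035) had 119 and 106 CPM in the differentiation and 178 and 208 CPM in the control libraries (log2 -0.78, SE 0.18, adjusted p = 0.0145). Its groups did not overlap, so these family members with a call did not share a direction.

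Carriers of organic ions, vitamins and lipids held 4 falls beside the rise of Slc22a27 among 23 tested, with 6.75% lower and 5.44% higher over all RNAs. Slc52a3, a riboflavin transporter, had 6.52 and 5.94 CPM in the differentiation and 18.5 and 17.6 CPM in the control libraries (log2 -1.53, SE 0.42, adjusted p = 0.0366). Slc47a2, an exporter of organic cations, had 13.9 and 11.9 CPM in the differentiation and 30.7 and 30.2 CPM in the control libraries (log2 -1.25, SE 0.33, adjusted p = 0.0297). Both calls were lost without differentiation 2 (adjusted p = 0.0879 for Slc52a3 and 0.0768 for Slc47a2). The Slc52a3 call was also lost when only 1 was kept of pairs with identical counts and the same partner (adjusted p = 0.152). The Slc47a2 call was also lost without Malat1 pairs (log2 -1.01, adjusted p = 0.0943) and with DESeq2 (0.0898). Slc44a3, of the choline transporter-like family, had 20.4 and 19.97 CPM in the differentiation and 45.7 and 44.8 CPM in the control libraries (log2 -1.16, SE 0.28, adjusted p = 0.0184). Slc22a17, known as a receptor of lipocalin 2, had 22.8 and 35.6 CPM in the differentiation and 61.3 and 62.5 CPM in the control libraries (log2 -1.05, SE 0.26, adjusted p = 0.0235). None of the 4 overlapped between groups.

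The metal transporters held 2 falls. Slc41a3, of a magnesium transporter family, had 26.1 and 39.9 CPM in the differentiation and 83.3 and 57.9 CPM in the control libraries (log2 -1.06, SE 0.28, adjusted p = 0.0284). Slc39a11, of the zinc importer family, had 139 and 118 CPM in the differentiation and 194 and 192 CPM in the control libraries (log2 -0.60, SE 0.17, adjusted p = 0.0429). The groups were apart for both, and the Slc39a11 call was lost without differentiation 2 (adjusted p = 0.0864). Under column totals 8 of the 18 calls were lost: Slc52a3, Slc47a2, Slc41a3, Slc22a17, Slc38a2, Slc38a1, Slc9a7 and Slc39a11 (adjusted p up to 0.146).

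By transport class the calls were few, to be read against 5.44% higher and 6.75% lower over all tested RNAs, and classes were not tested against each other. Carrier classes follow the family number alone, so a member can carry something other than its class name says. Family 37, with the glucose-6-phosphate transporter Slc37a1, is in the class of nucleosides, nucleotide-sugars and acetyl-CoA. Of 27 tested RNAs of inorganic ion and phosphate transport 4 rose and 2 fell (median log2 0.10). Of 25 tested RNAs of amino acid, peptide and neurotransmitter transport none rose and 3 fell (median -0.32), and 9 of the 25 had a change above 0. Of 24 mitochondrial carriers 2 fell (median -0.02), of 18 metal transporters 2 fell (-0.07), and of 23 carriers of organic ions, vitamins and lipids 1 rose and 4 fell (0.18). None was called among 13 carriers of sugars and carboxylates (0.06), 8 of nucleosides, nucleotide-sugars and acetyl-CoA (0.10) and 3 tested names that are no transporter or a pseudogene (0.64), with 4, 0 and 1 RNAs at an unadjusted p under 0.05 in edgeR's test.

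**Figure D3:**
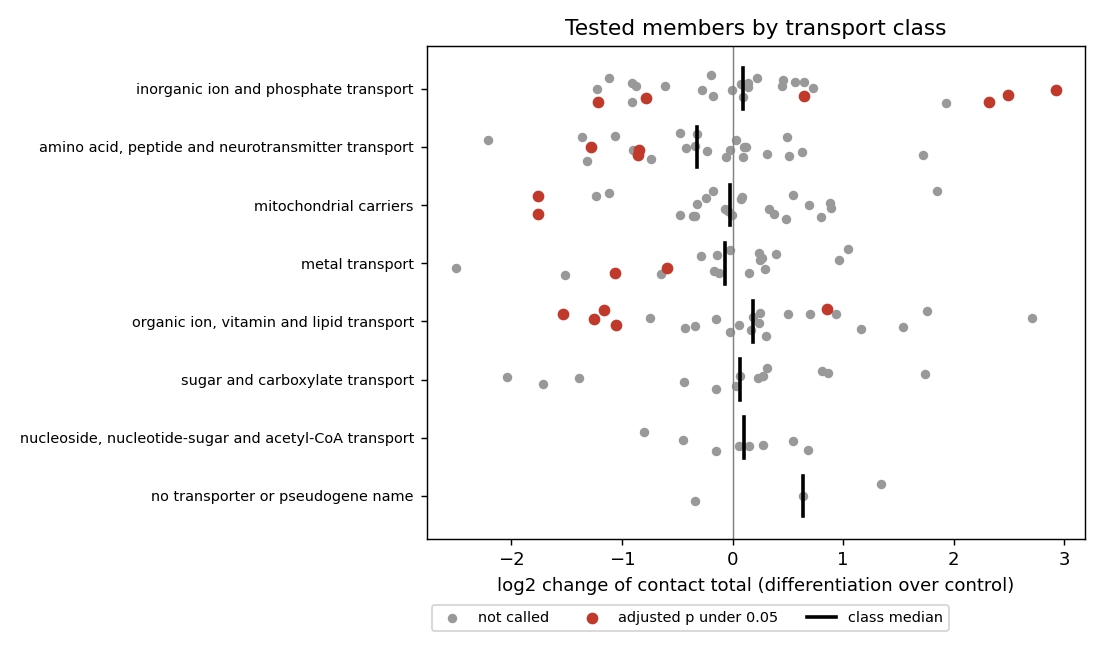
Log2 change of the contact total (x axis, differentiation over control) of the 141 tested solute carrier RNAs by transport class, 1 point per RNA, red where the adjusted p was under 0.05, with the class median as a black bar. Carrier classes follow the family number. The class medians lie between -0.32 (amino acids, peptides and neurotransmitters) and 0.64 (names that are no transporter or a pseudogene).

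Several of the RNAs with most counts did not pass. Slc45a4 had 644 and 574 CPM in the differentiation and 815 and 835 CPM in the control libraries, without overlap (609 ± 49.3 against 825 ± 14.1 CPM, log2 -0.44, SE 0.15, adjusted p = 0.0787). Slc44a1 had 234 and 263 CPM in the differentiation and 263 and 289 CPM in the control libraries (log2 -0.15, adjusted p = 0.591). Slc25a28 had 164 and 198 CPM in the differentiation and 131 and 149 CPM in the control libraries (log2 0.37, adjusted p = 0.200). None of these 3 changes passed the threshold. The groups of Slc44a1 nearly touched, at 262.9 CPM in differentiation 2 and 263.3 CPM in control 1. Slc39a14 had a log2 change of -0.28 (adjusted p = 0.306) and Slc23a2 of 0.05 (0.891), the last with overlapping groups.

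Other RNAs with many counts for their class also stayed under the threshold. Slc38a10, second in counts to Slc38a1 among the tested amino acid transporters, had 99.5 and 98.8 CPM in the differentiation and 75.8 and 65.0 CPM in the control libraries (log2 0.50, adjusted p = 0.124). Slc37a1, a glucose-6-phosphate transporter of the endoplasmic reticulum, had a log2 change of -0.45 (adjusted p = 0.475) and Slc35a1, the CMP-sialic acid transporter of the Golgi, of -0.15 (0.890). Slc4a1ap, whose product binds an anion exchanger and is no carrier, had 0.64 (0.195), and the pseudogene Slc39a1-ps had 1.34 (0.139). Slc39a1-ps and its parent Slc39a1 were listed as a pair with each other, as were Slc6a20a and Slc6a20b, so reads may be shared between these near-identical copies and their values are uncertain.

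Contacts within an RNA and contacts with other RNAs were tested apart. All 69 within-RNA pairs could be tested, and 8 were called higher and 2 lower, against 12.3% higher and 3.33% lower (15.7% either way) among 4439 within-RNA pairs of the table. The median was 0.34, against 0.44 over all within-RNA pairs, both on the same side of 0. With within-RNA pairs scaled on their own, the split turned to 4 higher and 8 lower among 67 tested (all RNAs 5.86% higher and 8.77% lower, medians -0.02 and 0.03). The direction of small changes within RNAs therefore depended on the scaling.

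The within-RNA rises included those of the ion exchangers named above. Within Slc8a2 there were 44 and 33 counts in the differentiation and 5 and 6 in the control libraries (47.1 ± 21.9 against 4.26 ± 0.0637 CPM, log2 3.40, SE 0.53, adjusted p = 9.75e-04). Within Slc9a2 the level was 65.4 ± 18.03 against 9.49 ± 3.27 CPM (log2 2.77, SE 0.43, adjusted p = 9.32e-04), and within Slc26a8 it was 26.4 ± 4.85 against 3.54 ± 0.951 CPM (log2 2.86, SE 0.57, adjusted p = 0.00681). Groups did not overlap in any of these, as in all 1340 called totals of the table. The share over all called pairs was not counted. Within Slc20a2 there were 325 and 509 counts in the differentiation and 242 and 323 in the control libraries (475 ± 18.1 against 218 ± 19.6 CPM, log2 1.12, SE 0.20, adjusted p = 0.00354). The Slc20a2 call was lost without control 1 (adjusted p = 0.0729) and the Slc26a8 call without control 2 (0.0601).

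Bicarbonate transporters, another mitochondrial carrier and a cation exporter were called in the fit of pairs and not in that of contact totals. For Slc4a10 and Slc47a1 both rest on the same counts, since the within-RNA pair is their 1 listed pair, and the fits differ in scaling (totals 1.93, adjusted p = 0.0658, and 2.71, adjusted p = 0.0657). Within Slc4a4, a sodium-bicarbonate cotransporter, the level was 83.6 ± 11.7 against 37.5 ± 7.79 CPM (log2 1.15, SE 0.32, adjusted p = 0.0406). Within Slc4a10, of the same family, it was 20.7 ± 4.90 against 4.45 ± 3.25 CPM (log2 2.21, SE 0.62, adjusted p = 0.0474). Within Slc25a25, an ATP-magnesium/phosphate carrier, it was 80.5 ± 2.76 against 34.8 ± 12.7 CPM (log2 1.21, SE 0.33, adjusted p = 0.0430). All 3 calls were lost without control 2 (adjusted p = 0.122 for Slc4a4, 0.337 for Slc4a10 and 0.403 for Slc25a25). That of Slc4a4 was also lost without control 1 (0.260) or differentiation 2 (0.130), and that of Slc4a10 without differentiation 1 (0.0761). Within Slc47a1, an exporter of organic cations, there were 20 and 6 counts in the differentiation and 3 and 2 in the control libraries (log2 2.98, SE 0.84, adjusted p = 0.0471), a ratio of 7.68 (95% counting interval 2.90 to 25.6). Most of its counts came from differentiation 1, and the call was lost without that library (adjusted p = 0.539) or control 2 (0.146). With within-RNA pairs scaled alone none of these 4 pairs was called (adjusted p = 0.181 for Slc4a4, 0.159 for Slc4a10, 0.159 for Slc25a25 and 0.0945 for Slc47a1).

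The within-RNA falls were those of the 2 mitochondrial carriers. Within Slc25a21 there were 85 and 63 counts in the differentiation and 298 and 368 in the control libraries (90.6 ± 42.8 against 258 ± 9.07 CPM, log2 -1.53, SE 0.29, adjusted p = 0.00432). Within Slc25a23 there were 16 and 20 in the differentiation and 69 and 87 in the control libraries (20.9 ± 2.54 against 60.3 ± 3.01 CPM, log2 -1.53, SE 0.36, adjusted p = 0.0191). In both, the control counts were far above those of differentiation. The Slc25a23 call did not hold when control 1 (adjusted p = 0.0607), control 2 (0.140) or differentiation 2 (0.0536) was left out.

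Of 561 listed pairs with another RNA 270 could be tested, and 2 were called higher and 2 lower (1.48%), against 1.3% higher, 2.25% lower and 3.55% either way among 27249 such pairs. The median was -0.05 in both sets. Both falls were contacts with Malat1, a nuclear long noncoding RNA of nuclear speckles. Slc45a4 with Malat1 had 1 and 2 counts in the differentiation and 28 and 28 in the control libraries (1.67 ± 0.349 against 21.8 ± 2.48 CPM, log2 -3.58, SE 0.69, adjusted p = 0.00553), a ratio of control over differentiation of 12.6 (95% counting interval 4.11 to 63.1). Slc38a2 with Malat1 had 2 and 3 counts in the differentiation and 24 and 28 in the control libraries (2.86 ± 0.0216 against 20.2 ± 0.0999 CPM, log2 -2.77, SE 0.64, adjusted p = 0.0161), a ratio of 7.04 (2.83 to 22.6). Neither pair overlapped between groups, a trait whose share over all called pairs was not counted. The Slc45a4 call held in all 11 alternatives run and the Slc38a2 call in 10 of 11, lost without control 2 (adjusted p = 0.0543).

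The falls stood within a wider fall of Malat1. The contact total of Malat1 itself changed by -1.09 (adjusted p = 0.00106), and of all 1487 tested Malat1 pairs none was called higher and 90 lower (median -0.87). Of 24 solute carriers that contacted Malat1, 13 could be tested, with a median of -0.81 and 4 changes above 0. Slc22a20, an organic anion transporter whose gene lies 167562 bp from Malat1, had 17 and 21 counts with it in the differentiation and 17 and 22 in the control libraries (log2 0.54, adjusted p = 0.559). Slc23a2 with Malat1 had a log2 change of 1.64 (adjusted p = 0.201). Without Malat1 pairs the Slc38a2 total changed by -0.62 and was no longer called (adjusted p = 0.141), nor was that of Slc47a2 (-1.01, adjusted p = 0.0943).

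**Figure D4:**
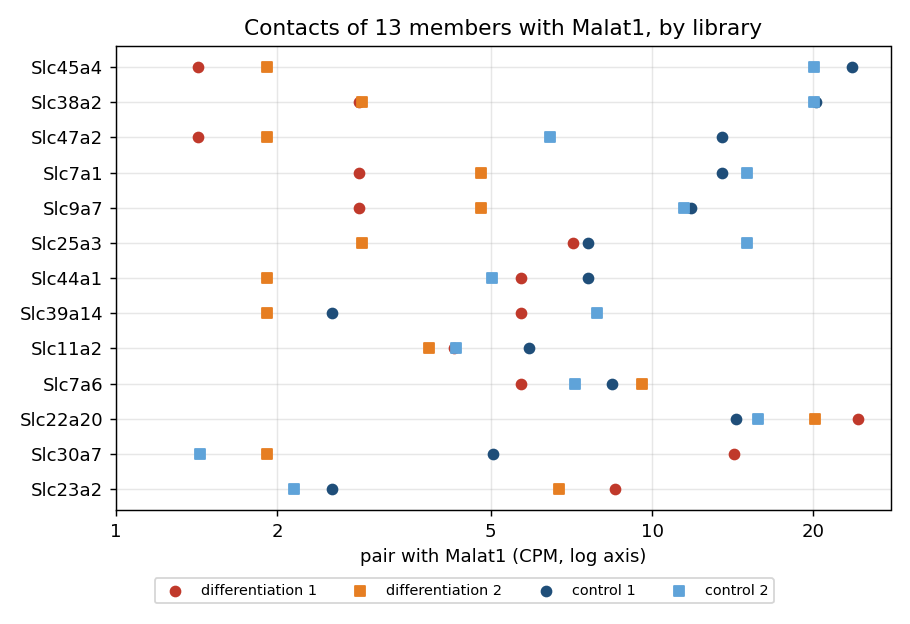
Level of the pair with Malat1 (CPM, log axis) for the 13 solute carriers whose pair could be tested, 1 point per library, in order of log2 change. Slc45a4 and Slc38a2 at the top have both differentiation points far below both control points, while Slc22a20, Slc30a7 and Slc23a2 at the bottom have changes above 0.

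The rises were contacts of other kinds. Slc22a27 with Eef1a1 had 121 and 234 counts in the differentiation and 106 and 140 in the control libraries (198 ± 36.9 against 94.9 ± 7.84 CPM, log2 1.06, SE 0.25, adjusted p = 0.0175). Slc25a4, the ADP/ATP exchanger of mitochondria, had 9 and 9 counts with Gm42418 in the differentiation and 2 and 2 in the control libraries (log2 2.67, SE 0.74, adjusted p = 0.0451), a ratio of 6.65 (95% counting interval 2.19 to 26.99). The groups did not overlap on the CPM scale in either pair, again without a share over all called pairs to set beside it. The Slc25a4 call was lost when any 1 library was left out (adjusted p = 0.0677 to 0.230), and the Slc22a27 call without control 1 (0.144) or control 2 (0.112).

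The 3 partners with most counts were Gm42418, Gm26917 and Slc9a9, all among the hub RNAs. Gm42418 contacted 106 of the 176 RNAs, with 695 and 928 counts in the differentiation and 1059 and 1403 in the control libraries. Slc9a9, an RNA of family 9 that is itself left out of the set, contacted 108, and Gm26917 contacted 96. Of the tested pairs, 1 of 82 with Gm42418 rose and none of 65 with Gm26917 or 60 with Slc9a9 was called, at unadjusted p under 0.05 for 13, 7 and 6 of them. Median changes were -0.17 with Gm42418, -0.35 with Gm26917 and 0.06 with Slc9a9, against 0.05, -0.23 and 0.03 over all tested pairs of these partners. Shroom3, a cytoskeletal regulator gene, contacted 31 solute carriers and the predicted gene Gm23935 contacted 24. None of their 7 and 6 tested pairs was called, and 1 of each had an unadjusted p under 0.05.

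For 39 RNAs both kinds of contact were tested, and their log2 changes had a Spearman correlation of 0.72 across RNAs, which share libraries. The 2 kinds came from separate fits, each with its own scaling. The median change over all features was 0.44 for within-RNA pairs and 0.02 for summed between-RNA contacts, an offset that the contrasts below include. Some RNAs were called on one side and not on the other. Slc20a2 rose within the RNA (1.12, and 0.71 with within-RNA pairs scaled alone). Its summed contacts with other RNAs changed by -0.01 (adjusted p = 0.984). In Slc45a4 the within-RNA pair changed by -0.03 (adjusted p = 0.949) and the contacts with other RNAs fell by 0.86 on the log2 scale (adjusted p = 0.00451), and without Malat1 pairs by 0.75 (adjusted p = 0.0109). In Slc9a7 the values were -0.30 (adjusted p = 0.510) within and -1.32 (adjusted p = 0.00313) with others, and in Slc38a1 they were -0.43 (adjusted p = 0.344) and -1.21 (adjusted p = 0.0202). The difference between the 2 kinds of contact was not itself tested. Over all RNAs with summed contacts to others, 1 of 109 solute carriers rose and 9 fell, against 6.56% higher and 6.47% lower among 9648 RNAs.

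**Figure D5:**
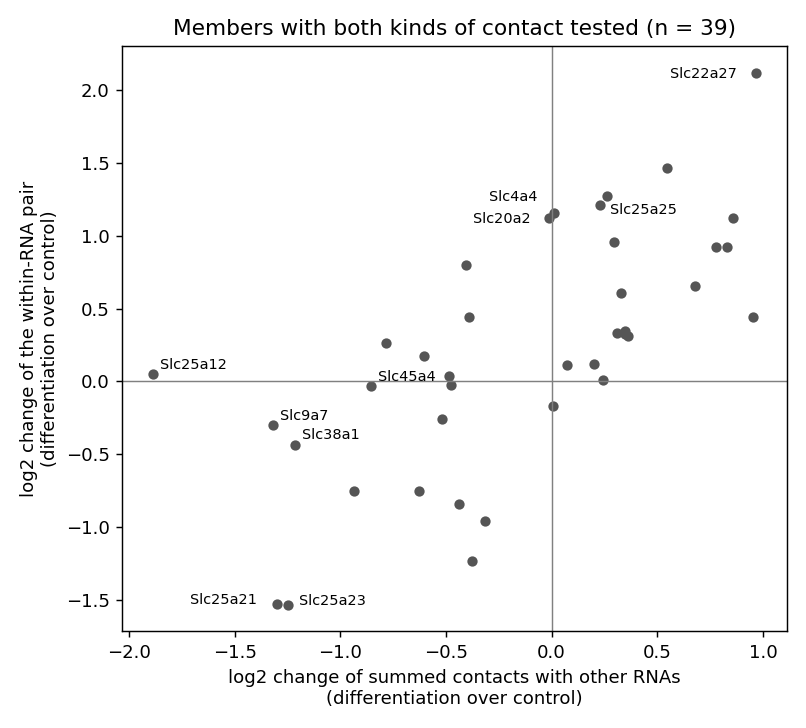
Log2 change (differentiation over control) of the within-RNA pair (y axis) against that of the summed contacts with other RNAs (x axis) for the 39 solute carrier RNAs with both tested, 1 point per RNA. Slc20a2 and Slc4a4 lie near 0 on the x axis and above 1 on the y axis, and Slc25a21 and Slc25a23 are low on both.

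A few contacts joined a solute carrier to a neighbour or to a likely copy. Slc39a11 contacted the noncoding RNA 2610035D17Rik, 43013 bp away, with 21 and 14 counts in the differentiation and 34 and 35 in the control libraries. Slc25a13, a mitochondrial aspartate-glutamate carrier, contacted Dync1i1, a dynein subunit gene 13179 bp away, with 6 and 3 counts in the differentiation and 14 and 13 in the control libraries. Neither pair was called (log2 -0.36, adjusted p = 0.732, with 2610035D17Rik, and -0.97, adjusted p = 0.464, with Dync1i1), and the total of 2610035D17Rik itself changed by -1.02 (adjusted p = 0.00330). Slc38a1 and Slc38a2 contacted each other with 1 and 3 counts in the differentiation and 5 and 2 in the control libraries, too few for a comparison. Slc25a3, the mitochondrial phosphate carrier, was listed with the predicted gene Gm13904 (20 and 17 counts in differentiation, 9 and 7 in control), a pair whose counts are uncertain if the predicted gene is a copy. Slc39a12, a zinc transporter, stood out by contacts alone: it had 24 listed partners and no within-RNA pair on 227 counts, and its total changed by -0.02 (adjusted p = 0.979).

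Longer genes tended to have more contacts. Across the 174 protein-coding members the Spearman correlation of gene length with the summed count was 0.31 (0.37 over 10381 protein-coding genes), and with the percent of counts within the RNA 0.35 (0.31 over the same genes). The median gene length was 56.6 kb for the 69 with a within-RNA pair and 27.3 kb for the 105 without one. Genes are not independent replicates, and these are descriptions.

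Promoter windows of 300 bases were listed for 136 of the 176 RNAs, 186 windows in all, and for 13 of the 18 called ones. Motifs were searched on both strands. GGGCGG was found in 64.0% of these windows, against 35.7% of 32841 windows in the table, CACGTG (E box) in 12.9% against 7.15%, and TATAAA in 6.45% against 13.6%. CCAAT was found in 32.8% against 37.4%, GTTGCC in 12.9% against 12.5% and TGACGTCA (cAMP response element) in 1.61% against 1.79%. The table also holds windows of noncoding genes, which the solute carriers almost lack. GC content was 61.3% and 65.0% in the windows of Slc8a2 and Slc7a1 shown above, 44.7% in that of Slc26a8 and 43% in that of Slc25a21.

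Other transporter families were taken by name pattern or list, and are set beside the 12.2% of all tested RNAs called either way. Of 6 organic anion transporters of the Slco family 1 rose and 1 fell. Slco2a1, a prostaglandin transporter, had 70.9 and 66.9 CPM in the differentiation and 15.6 and 20.1 CPM in the control libraries (log2 1.93, SE 0.26, adjusted p = 7.84e-04). Slco3a1, of the same family, had 371 and 393 CPM in the differentiation and 539 and 546 CPM in the control libraries (log2 -0.50, SE 0.15, adjusted p = 0.0438). Of 26 tested ABC transporters 2 rose and 1 fell (median 0.14). Abca1, a cholesterol exporter, had 78.3 and 98.8 CPM in the differentiation and 175 and 173 CPM in the control libraries (log2 -0.97, SE 0.18, adjusted p = 0.00591). Abca5, of the same subfamily, had 51.4 and 49.1 CPM in the differentiation and 21.99 and 20.7 CPM in the control libraries (log2 1.23, SE 0.27, adjusted p = 0.0116). Abcc12 had 8 and 21 counts in the differentiation and 1 and 1 in the control libraries, a ratio of 17.5 (95% counting interval 4.42 to 151.)

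Of 27 tested P-type ATPase genes only Atp1b2, a subunit of the sodium-potassium pump, was called, with 30.2 and 30.8 CPM in the differentiation and 56.1 and 72.5 CPM in the control libraries (log2 -1.08, SE 0.25, adjusted p = 0.0150). Of 5 tested genes that regulate or assist solute carriers none was called, at an unadjusted p under 0.05 for 0 of them. Stk39, a kinase that regulates cation-chloride cotransporters, had a log2 change of 0.01 (adjusted p = 0.986), and Wnk1, a kinase upstream of it, of 0.16 (adjusted p = 0.563).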

How the data were processed

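The values were raw counts of chimeric reads, 1 per RNA pair in each library, as the authors deposited them. STAR and build GRCm38 appear, with no stated role, per the submitters' processing notes. How chimeric reads, duplicates, strand and overlapping genes were handled was not given in the sources used here. Libraries were strand-specific, per the labels' protocols.

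Pair names were split into their 2 RNAs, members were taken by name, and counts were summed per RNA. A between-RNA pair enters 2 totals. Totals and pairs of all RNAs were tested with edgeR 4.0.16 (limma 3.58.1, R 4.3.3): TMM, filterByExpr (minimum count 5, total 10), quasi-likelihood F test, two-sided, Benjamini-Hochberg adjusted p under 0.05. The biological coefficient of variation was 18.7% over totals and 24.9% over pairs. DESeq2 1.42.0 and the other settings below were alternatives. Left-out-library fits kept the features of the full fit and assumed that the lone library varies like the other group. The test was also run on simulated counts of a fixed spread, which cannot show how it fares on real differences between libraries. Among 237 member pairs of 20 or more counts, 26 had counts identical to another pair of the same partner.

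Members, classes and lists were chosen with earlier results of these data known. Named were called members (up to 12 per direction), the 10 with most counts, the 2 most counted tested per class, up to 8 called within-RNA and 12 between-RNA pairs per direction, up to 4 called genes (otherwise the 2 of largest mean count) per other transporter list, and the 8 partners with most counts. Slc39a1, Slc39a12, Slc22a20 and the contacts with neighbours and likely copies were added after their values were seen. Coordinates, symbols and promoters came from RefSeq tables (GRCm38.p6, 1-based), and all 176 names matched. Values of 3 members that the rule names are not reported here.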

Additional observations from a re-analysis of the deposited data

How the results depend on the processing

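With 2 libraries a group, contact totals called higher numbered 5, with 0 to 11 when each library in turn was left out, 1 over between-RNA pairs only and 3 without hub pairs. Those called lower numbered 13, with 0 to 19 when a library was left out, 5 under column totals and 8 over within-RNA pairs only. Within-RNA pairs called higher numbered 8, with 3 to 13 when a library was left out, 4 under column totals and 4 with DESeq2, and those called lower numbered 2, with 1 to 3. Between-RNA pairs called higher numbered 2, with 0 to 2 when a library was left out, 1 under column totals, 1 with no filter and 0 with DESeq2. Those called lower numbered 2, with 1 to 3. The low ends came without a control library. The cause was not tested.

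With the replicate number as a block, 10 totals were called higher and 20 lower, and 13 within-RNA pairs higher, and all 18 called totals were kept. Deviations of replicates 1 and 2 correlated at 0.13 between the groups over 6086 RNAs, and nothing in the labels pairs the libraries.

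Of the 18 called totals, 17 were kept with RLE scaling. All 18 were kept with no filter, with the default filter (minimum count 10, total 15) and without partners within 100 kb. With 1 of each identical set 17 were kept, and Slc52a3 was lost. DESeq2 kept 13 of 16 that had a value. Chosen after seeing the data, leaving out Malat1 pairs kept 16.

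Signs turned for Slc20a2 (-0.014, between-RNA pairs only) and Slc44a1 (0.012, column totals). They turned for Slc23a2 (-0.046 without differentiation 1, -0.10 over within-RNA pairs only, -0.15 without hub pairs), which kept its sign without differentiation 2 (0.19). They also turned without differentiation 2 for Slc37a1 (0.034, against -1.01 without differentiation 1) and Slc35a1 (0.37, against -0.76). Except for Slc20a2, none of these was called. The cause was not tested. At this depth 35 members could not be tested.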
